A study of Mus musculus with 6 samples.

Results

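A set of 10 genes whose products mark young neurons was followed in mouse neural progenitor cells with and without extra Sox3. They are the neurofilament genes Nefl, Nefm and Ina, the tubulin and microtubule-associated protein genes Tubb3, Map2, Mapt and Dcx, the related genes Nsg1 and Nsg2, and the RNA-binding protein gene Elavl3. The genes were chosen by name, with earlier results of these data known. All 10 were measured, among 15302 named genes in the deposited table. Each is represented by 1 probe set, that with the highest mean over all 6 arrays. Dcx, Map2 and Mapt had 4, 2 and 2 probe sets, but those of 1 gene held identical values, so no choice between them was made.

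The study compared 3 arrays of Sox3 over-expression with 3 control arrays, 1 array per biological replicate. Control cells were mouse ES cell derivatives of genotype Sox1-GFP, which carry GFP in the locus of Sox1, a gene of neural progenitors. The other group carried the same reporter and Nestin-Sox3, a transgene in which the Nestin promoter, active in neural progenitors, drives Sox3. Both groups were differentiated as monolayers with B27 and N2 supplement, given 0.5 µM all-trans retinoic acid on days 0 and 2, and sorted by FACS on day 4. The labels do not give the number of ES cell clones behind each genotype, nor whether replicates shared a culture or a sort. The p-values therefore measure the spread between these samples, and clone and genotype cannot be told apart.

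Neurons are built on microtubules and on neurofilaments, which are intermediate filaments assembled from several related subunits. Young neurons switch on a neuronal tubulin, proteins that bind and steady microtubules, and RNA-binding proteins of the Elav family, while they switch off progenitor genes. SoxB1 factors such as Sox3 are known for holding cells in the progenitor state, and proneural factors such as Neurog2 for starting neuronal differentiation. The comparison shows how the marker genes stood in sorted progenitors when Sox3 was raised.

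Values are log2 signals, so a difference of 1 is a doubling, and each difference is the Sox3 mean minus the control mean, with the moderated standard error (SE) that limma gives. A gene is said to have risen or fallen where its limma p, adjusted by Benjamini-Hochberg over all 21876 tested probe sets, was under 0.05. Over all named genes, 2.67% fell and 1.27% rose by this rule, 3.94% together. Over all probe sets 255 rose and 536 fell, against 382 and 498 after quantile normalisation and 365 and 455 after cyclic loess. Sox3 itself lay at 9.20, 9.23 and 9.22 with the transgene and at 7.59, 7.52 and 7.25 without it. Control replicate 3 stood apart from the other 5 arrays on the axis of largest variance, with a score of 20.2. The other control arrays scored 4.69 and 5.61. It held the highest control value for 4 of the 10 marker genes, and for 44.7% of all genes.

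Of the 10 marker genes, 2 fell, 0 rose and 8 did not pass (limma), beside 2.67% of all genes lower, 1.27% higher and 3.94% in either direction. Nsg2 fell 1.57-fold and Nefm 1.42-fold. By limma's p before adjustment, 4 genes were lower and 0 higher at the 0.05 level, beside 23.8% of all genes (3649 of 15302) in either direction; the further ones were Tubb3 and Nefl. The difference was below 0 for 8 of the 10 genes, as it was for 7649 of all 15302 genes. The median of the 10 differences was -0.11, beside 0.00 over all genes. All 3 Sox3 arrays lay below all 3 control arrays for 6 of the 10 genes, a pattern found in 18.3% of all genes, and above them for 1, a pattern found in 13.1%. Because the genes were chosen with earlier results of these data known, these counts are no test of the set against all genes. In sorted bulk RNA, fewer cells of a neuronal type and less RNA per cell cannot be told apart.

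**Figure D1:**
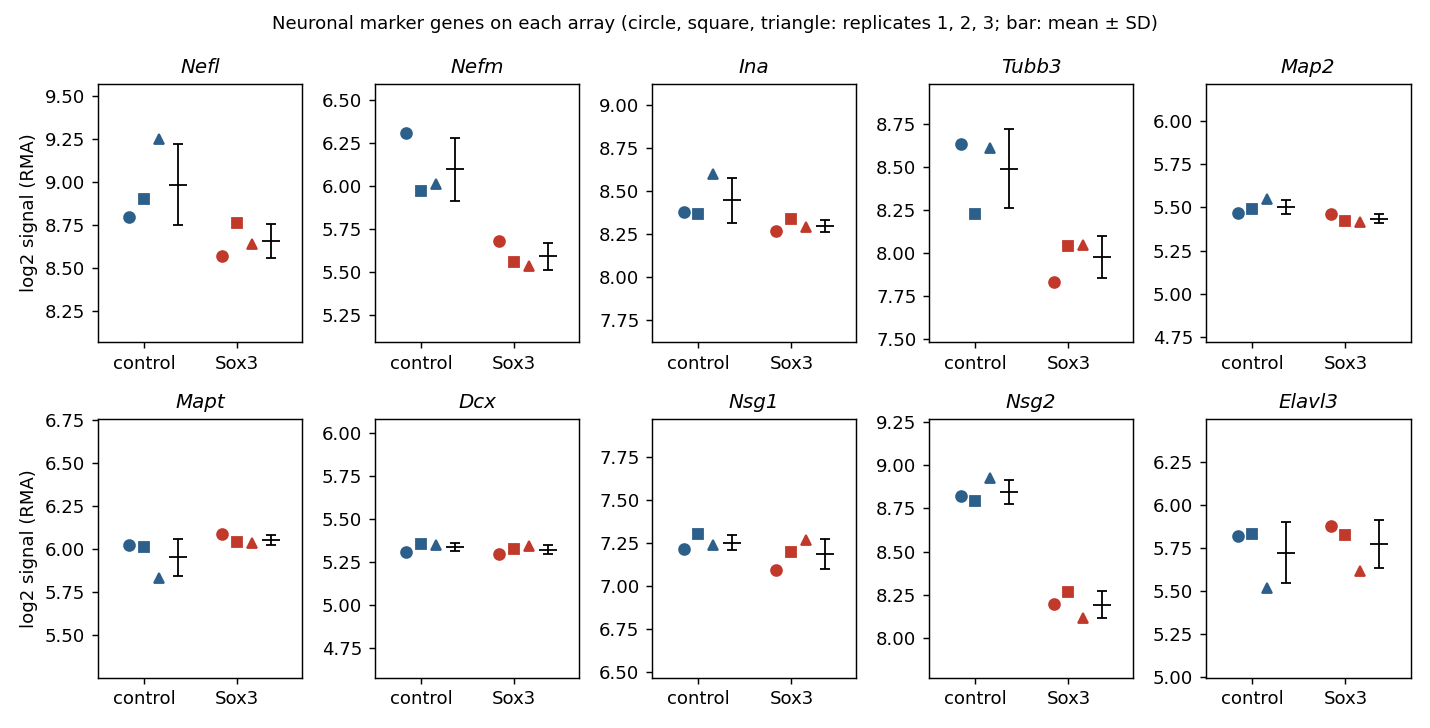
Log2 signal (y axis, RMA values) of the 10 marker genes on each array, control in blue and Sox3 over-expression in red, with symbols for replicates 1, 2 and 3 and a bar for mean ± SD (n = 3). Every panel spans the same log2 height. The groups lie 0.53 apart for Nsg2 and 0.29 apart for Nefm at their nearest arrays, and the arrays of Dcx, Nsg1 and Elavl3 overlap.

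Nsg2 encodes a small membrane protein of the neuronal endosomal system. Its log2 signal was 8.19, 8.27 and 8.11 in Sox3 replicates 1, 2 and 3 and 8.82, 8.79 and 8.93 in control replicates 1, 2 and 3. The groups did not overlap, and the lowest control array lay 0.53 above the highest Sox3 array. The means were 8.19 ± 0.08 and 8.85 ± 0.07 (SD, n = 3 each), a difference of -0.65 ± 0.06 (SE; limma adjusted p = 0.00307). Of all named genes, 0.216% had a lower difference. Nsg2 fell in all 16 other settings tried, which include 6 fits that each left out 1 array, with differences from -0.69 to -0.59 and limma adjusted p from 0.000443 to 0.0189.

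Nsg1, its close relative and also a protein of neuronal endosomes, lay at 7.09, 7.20 and 7.27 in Sox3 cells and at 7.22, 7.30 and 7.24 in control cells. The arrays of the groups overlapped. The difference was -0.07 ± 0.06 (SE, limma adjusted p = 0.518), with a 95% interval from -0.20 to 0.07. To compare the response of the relatives, the log2 value of Nsg1 was subtracted from that of Nsg2 on each array. This within-array value was 1.10, 1.07 and 0.85 in Sox3 cells and 1.60, 1.49 and 1.69 in control cells, without overlap. The group means of this value differed by -0.59 ± 0.10 (SE) on the log2 scale. For this and the other pairs of genes, the SE comes from the variances of the within-array value in each group and is not limma's moderated SE. The exact two-sided permutation test over the 6 arrays gave p = 0.1, the smallest that 3 against 3 arrays allow (p = 0.167 adjusted over the 5 pairs of genes compared), so this design could not reach 0.05.

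The sequence before the start site of Nsg2 is shown because Nsg2 had the smallest adjusted p of the 10 genes, and those of Tubb3 and Ina for comparison with a gene just short of the threshold and with a neurofilament gene that lay well short of it. RefSeq promoter windows (GRCm38.p6) were matched for 6 of the 10 genes, but not for Nefl, Nefm, Mapt or Nsg1. The 250 bases before each start site were searched on both strands. The words searched were ACAAAG and ACAATG, which resemble the core bound by SoxB factors, and CAGATG and CAGCTG, E-box words of the kind bound by proneural bHLH factors. The words do not overlap each other in the windows printed. Capitals mark each match, or its reverse complement where the match is on the other strand. The windows are chr11:32000169-32000418, chr8:123411303-123411552 and chr19:47014431-47014680, all on the plus strand, printed 5′ to 3′.
Nsg2: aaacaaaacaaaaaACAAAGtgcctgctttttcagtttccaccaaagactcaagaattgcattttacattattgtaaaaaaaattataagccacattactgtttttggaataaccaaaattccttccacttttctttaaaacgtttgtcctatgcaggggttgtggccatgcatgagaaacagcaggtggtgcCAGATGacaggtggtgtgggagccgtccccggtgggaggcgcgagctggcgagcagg
Tubb3: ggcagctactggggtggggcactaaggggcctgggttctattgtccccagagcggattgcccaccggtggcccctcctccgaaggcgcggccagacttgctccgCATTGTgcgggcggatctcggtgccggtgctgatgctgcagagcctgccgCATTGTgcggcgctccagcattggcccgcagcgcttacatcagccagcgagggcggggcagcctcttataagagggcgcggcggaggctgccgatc
Ina: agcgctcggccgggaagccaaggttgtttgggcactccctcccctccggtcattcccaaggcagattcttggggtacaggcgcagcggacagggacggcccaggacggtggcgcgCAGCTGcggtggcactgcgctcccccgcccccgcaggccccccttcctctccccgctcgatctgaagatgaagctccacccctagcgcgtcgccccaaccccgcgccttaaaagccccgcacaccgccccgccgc

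In Nsg2 the ACAAAG match began 236 bases and the CAGATG match 57 bases before this start site. A second annotated start site of Nsg2 had no match in its window. Tubb3 held ACAATG matches 146 and 96 bases before its start, and Ina a CAGCTG match 135 bases before its own. Of the genes not printed, Dcx held an ACAAAG match 8 bases and Elavl3 a CAGCTG match 43 bases before a start site, and Map2 held none. Neither Dcx nor Elavl3 was called. Nefm, the other called gene, had no window to search. Such words are common: ACAAAG was found in 16.5%, ACAATG in 10.7%, CAGATG in 14.4% and CAGCTG in 13.0% of all 32851 windows of this length. The GC content of the 3 printed windows was 43.6% for Nsg2, 68.0% for Tubb3 and 70.8% for Ina.

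Among the neurofilament genes, Nefm was called and Nefl and Ina were not. Nefm encodes the medium neurofilament subunit, Nefl the light subunit on which neurofilaments assemble, and Ina alpha-internexin, a subunit known for its early appearance in developing neurons. Nefm lay at 5.68, 5.56 and 5.53 in Sox3 cells and at 6.30, 5.97 and 6.01 in control cells. The groups did not overlap, and control replicate 1 was the highest array. The means were 5.59 ± 0.08 and 6.09 ± 0.18 (SD, n = 3 each), a difference of -0.51 ± 0.09 (SE; limma adjusted p = 0.0293). The call was lost when any of the 3 Sox3 arrays was left out, with limma adjusted p up to 0.0966, while the difference stayed between -0.57 and -0.40 in all 6 such fits. It was kept without each of the 3 control arrays.

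Nefl lay at 8.57, 8.76 and 8.64 in Sox3 cells and at 8.80, 8.90 and 9.25 in control cells. The groups were separated by only 0.04, and control replicate 3 held the highest value. The difference was -0.33 ± 0.11 (SE, limma adjusted p = 0.139) and was -0.19 without control replicate 3. Nefl was called in none of the 16 other settings, with limma adjusted p from 0.0864 to 0.341. Ina lay at 8.27, 8.34 and 8.29 in Sox3 cells and at 8.38, 8.37 and 8.60 in control cells, so the groups did not overlap but were 0.03 apart. The Ina difference was -0.15 ± 0.07 (SE, limma adjusted p = 0.25), with a 95% interval from -0.31 to 0.01. Without control replicate 3 it was -0.07. After quantile normalisation the difference was -0.26 for Nefl and -0.08 for Ina (limma adjusted p = 0.143 and 0.394).

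The same within-array comparison was made between the neurofilament genes. For Nefm minus Nefl the groups differed by -0.18 ± 0.23 (SE; exact two-sided permutation p = 0.7), and by 0.02 without control replicate 1. For Nefm minus Ina they differed by -0.36 ± 0.16 (SE; exact permutation p = 0.1, adjusted over the 5 pairs p = 0.167), and for Nefl minus Ina by -0.18 ± 0.07 (SE; exact permutation p = 0.2, adjusted p = 0.25). With 3 arrays a group no exact p below 0.1 is possible, so these tests could not reach 0.05 and do not settle whether the 3 genes changed unequally. Nefl and Nefm are near neighbours on chromosome 14, with 1 annotated gene between them in the RefSeq table.

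Of the other intermediate filament genes, 0 of 9 measured members rose and 0 fell (limma; 4 at p under 0.05 before adjustment, beside 23.8% of all genes), and their median difference was 0.00. Prph, which encodes peripherin, an intermediate filament protein of peripheral and some central neurons, came nearest. It lay at 9.09, 9.23 and 9.26 in Sox3 cells and at 9.57, 9.40 and 9.40 in control cells, a difference of -0.27 ± 0.07 (SE, limma adjusted p = 0.0772). After quantile normalisation the Prph difference was -0.19 (limma adjusted p = 0.19). Prph passed in 1 of 16 other settings, with array weights (-0.23), and its limma adjusted p ran from 0.0387 to 0.223. Lmnb1, a nuclear lamin gene, differed by -0.20 ± 0.07 (SE, limma adjusted p = 0.129). Nefh, which encodes the heavy neurofilament subunit and was chosen after its value was seen, differed by 0.01 ± 0.06 (SE, limma adjusted p = 0.941).

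Tubb3 encodes the class III beta-tubulin of young neurons. It lay at 7.84, 8.04 and 8.05 in Sox3 cells and at 8.64, 8.23 and 8.61 in control cells. The groups did not overlap; control replicate 2 was the lowest of its group and lay 0.18 above the highest Sox3 array. The means were 7.98 ± 0.12 and 8.49 ± 0.23 (SD, n = 3 each), a difference of -0.51 ± 0.11 (SE). The limma adjusted p of 0.0507 lay just above the threshold. Tubb3 passed in 5 of 16 other settings, with both filters on dim probe sets, with a trended prior variance, with named probe sets alone and without control replicate 2, and its limma adjusted p ran from 0.0177 to 0.168. The difference was -0.33 with array weights and ran from -0.65 to -0.44 with 1 array left out.

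**Figure D2:**
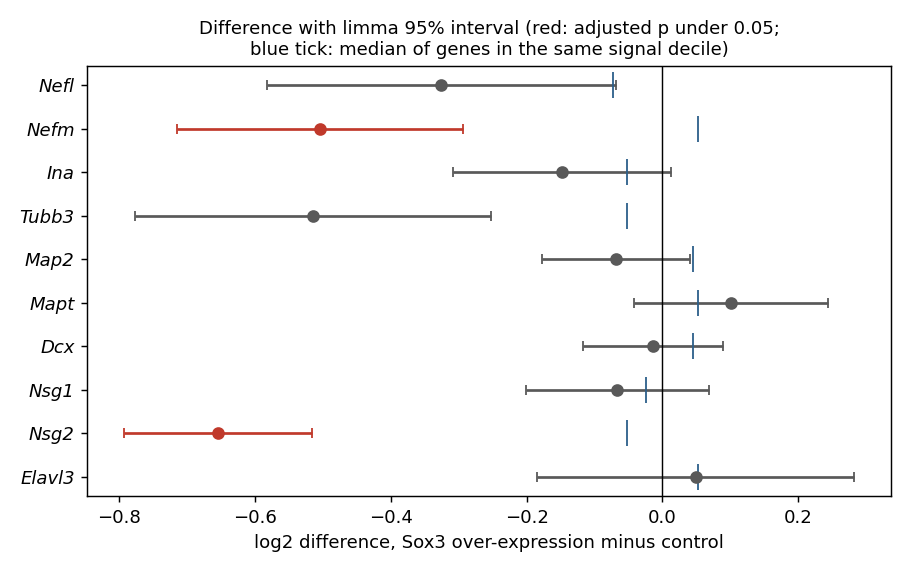
Log2 difference (x axis), Sox3 over-expression minus control, of each marker gene with limma's 95% interval (n = 3 per group). Red points are the 2 genes with an adjusted p under 0.05, Nsg2 and Nefm, and blue ticks mark the median difference of all genes in the same signal decile (10 bins of equal size by mean signal), which lay between -0.07 and 0.05. The interval of Tubb3 runs from -0.78 to -0.25, although its adjusted p was 0.0507.

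None of the 3 microtubule-associated protein genes among the markers passed. Map2, a gene of dendritic microtubules, lay between 5.42 and 5.46 in Sox3 cells and between 5.47 and 5.55 in control cells. Its difference was -0.07 ± 0.05 (SE, limma adjusted p = 0.409; 95% interval -0.18 to 0.04). Mapt, which encodes the axonal protein tau, was the only marker gene with all 3 Sox3 arrays above the control arrays. It lay at 6.09, 6.04 and 6.04 against 6.02, 6.01 and 5.83, and control replicate 3 was the lowest array. The difference was 0.10 ± 0.06 (SE, limma adjusted p = 0.356; 95% interval -0.04 to 0.24), and 0.04 without control replicate 3. For Map2 minus Mapt the groups differed by -0.17 ± 0.09 (SE; exact permutation p = 0.1, adjusted over the 5 pairs p = 0.167), and by -0.08 without control replicate 3.

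Dcx encodes doublecortin, a microtubule-associated protein of migrating young neurons. It lay between 5.30 and 5.34 in Sox3 cells and between 5.31 and 5.35 in control cells. The difference was -0.01 ± 0.04 (SE, limma adjusted p = 0.867; 95% interval -0.12 to 0.09). Elavl3, an RNA-binding protein gene of postmitotic neurons, lay at 5.88, 5.82 and 5.62 against 5.82, 5.83 and 5.52, with overlap. Its difference was 0.05 ± 0.10 (SE, limma adjusted p = 0.788; 95% interval -0.18 to 0.28), and it took the other sign without Sox3 replicate 1, without control replicate 3 or with array weights.

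These dim values have no stated detection limit. For orientation, the middle of 37 olfactory receptor probe sets, genes known mainly from the olfactory epithelium, was 5.43, and 95% of them lay below 6.40. In all, 5 marker genes had a mean signal below that value, namely Dcx, Map2, Elavl3, Nefm and Mapt. Of these 5, 1 was called, Nefm. Probes differ in affinity, so this is no detection call, and RMA is known to compress the differences of dim genes.

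**Figure D3:**
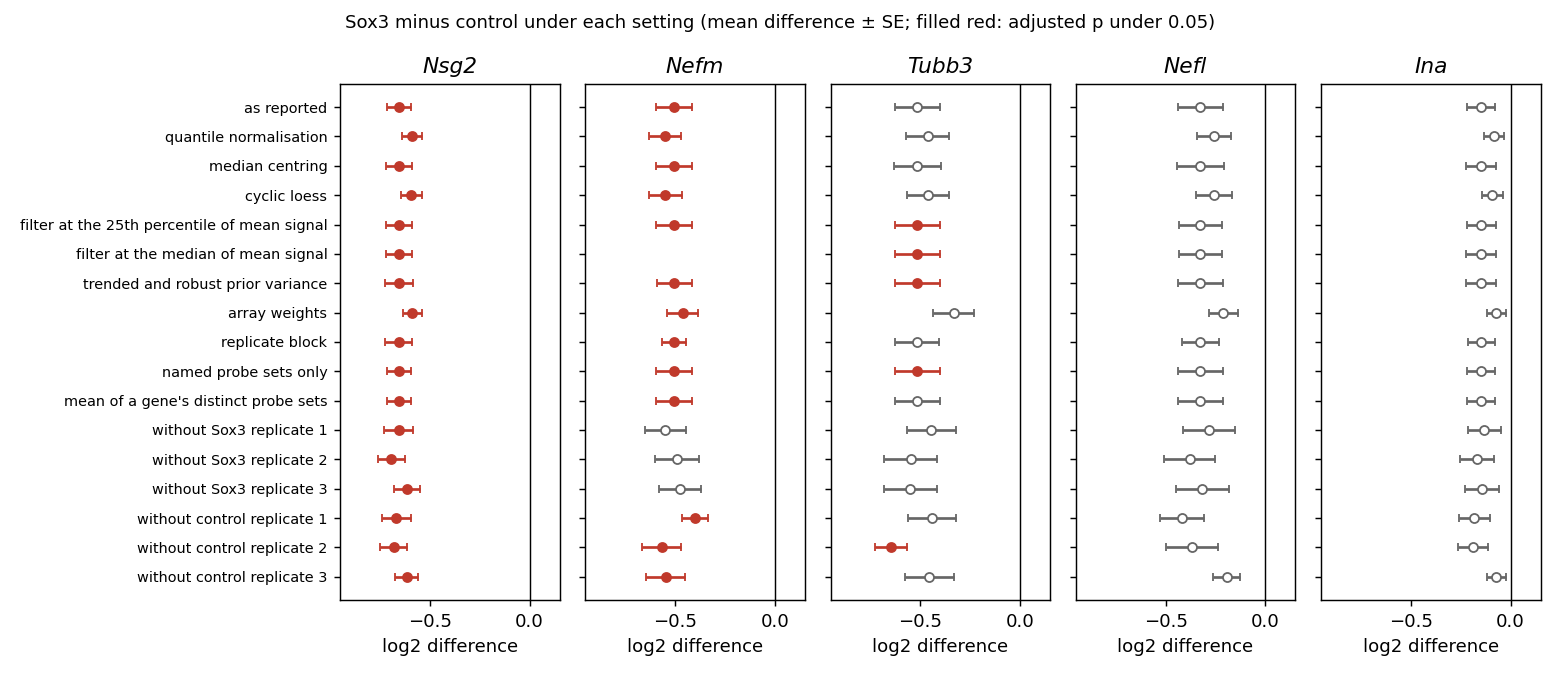
Log2 difference ± SE (x axis), Sox3 over-expression minus control, of 5 marker genes under the reported fit and the other settings, 1 per line; filled red points have a limma adjusted p under 0.05. Nsg2 is red on every line, Nefm turns grey without any 1 Sox3 array, Tubb3 is red in 5 settings, and Nefl and Ina in 0. Nefm has no point where its probe set was removed by the filter at the median signal.

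The wider gene families of the markers were described with lists, also chosen with earlier results of these data known. The counts of called genes in each list stand beside 2.67% of all genes lower and 1.27% higher (limma). In the tubulin list, 1 of 8 measured genes fell and 0 rose, and the median difference was 0.08. Tuba4a, an alpha-tubulin gene, fell 1.38-fold, from 11.16, 11.06 and 11.20 to 10.54, 10.64 and 10.86 (limma adjusted p = 0.0296). Leaving out any array but Sox3 replicate 3 lost this call (limma adjusted p up to 0.0987).

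Among the other microtubule-associated protein genes, 3 of 18 fell and 0 rose, with a median of -0.04. Clasp1, which encodes a protein that tracks microtubule plus ends, fell 1.30-fold. Map7d2, a MAP7 family gene, fell 1.27-fold, and Camsap3, which encodes a minus-end binding protein, 1.25-fold (limma adjusted p = 0.0205, 0.0172 and 0.043). All Sox3 arrays lay below all control arrays for 5 of the 18 genes, these 3 included, beside 18.3% of all genes. All 3 calls were lost when any Sox3 array was left out. That of Clasp1 was also lost without control replicate 1, that of Map7d2 without control replicate 2, and that of Camsap3 without each control array, and the limma adjusted p reached 0.0706, 0.0777 and 0.125.

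Of the Nsg relative and endosomal partner genes, 1 of 10 rose and 0 fell, and the median was 0.05. Cltb, a clathrin light chain gene, rose 1.26-fold (limma adjusted p = 0.0337), a call that did not survive leaving out any array, where the limma adjusted p reached 0.091. Caly, the third gene of the Nsg family and chosen after its value was seen, differed by 0.21 ± 0.07 (SE, limma adjusted p = 0.144).

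Of the other neuronal RNA-binding protein genes, 1 of 20 fell and 0 rose, with a median of 0.05. Khdrbs3, a STAR family splicing factor gene, fell 1.19-fold (limma adjusted p = 0.0459; lost without any 1 of the 6 arrays, up to 0.135). Elavl2, a relative of Elavl3 chosen after its value was seen, lay at 7.21, 7.26 and 7.16 against 7.48, 7.47 and 7.80, a difference of -0.37 ± 0.09 (SE, limma adjusted p = 0.0626). Elavl4, another relative chosen in the same way, differed by -0.01 ± 0.06 (SE, limma adjusted p = 0.925).

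Axonal and synaptic genes went both ways, with 3 of 32 higher, 1 lower and a median of 0.05. Nrcam, a cell adhesion gene of axons, rose 1.65-fold, from 6.55, 6.46 and 6.43 to 7.23, 7.39 and 6.99 (limma adjusted p = 0.00921), and was called in all 6 fits that left out 1 array. Cd24a, a surface glycoprotein gene of young neurons and progenitors, fell 1.46-fold (limma adjusted p = 0.0176; lost without Sox3 replicate 1 or 3 or control replicate 2, up to 0.0796). Scg3, a secretogranin gene, rose 1.19-fold, and Cplx1, a complexin gene, 1.17-fold (limma adjusted p = 0.0298 and 0.0339). Scg3 and Cplx1 each lost their call in all 6 fits with 1 array left out, in which the limma adjusted p reached 0.11 and 0.121.

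Of 34 neuronal transcription factor genes, 0 rose and 0 fell (limma; 8 at p under 0.05 before adjustment, beside 23.8% of all genes), and the median was 0.01. The smallest p-values belonged to Nhlh2, a bHLH gene, with a difference of -0.26 ± 0.06, and Pou4f2, a POU homeobox gene, with 0.43 ± 0.10 (SE, limma adjusted p = 0.0554 and 0.058). The proneural gene Neurog2, which is not in this list, lay at 8.07, 7.97 and 8.15 in Sox3 cells and at 6.31, 6.35 and 6.24 in control cells. It rose 3.38-fold (limma adjusted p = 4.27e-05). Of 14 genes of the REST complex, a repressor of neuronal genes in other cells, 1 fell and 0 rose, with a median of -0.11 and 13 of 14 differences below 0. Over all genes, 7649 of 15302 differences were below 0. The REST complex genes are mostly bright probe sets, and in the 5 brighter signal deciles of all genes the median difference was between -0.02 and -0.08. The part of signal level in the differences of this list was not tested. The gene that fell was Sin3a, a corepressor gene, 1.18-fold lower (limma adjusted p = 0.049; lost without any 1 of the 6 arrays, up to 0.16). Rest itself, chosen after its value was seen, lay at 8.17, 8.16 and 8.20 against 8.17, 8.10 and 8.10 (limma adjusted p = 0.49).

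**Figure D4:**
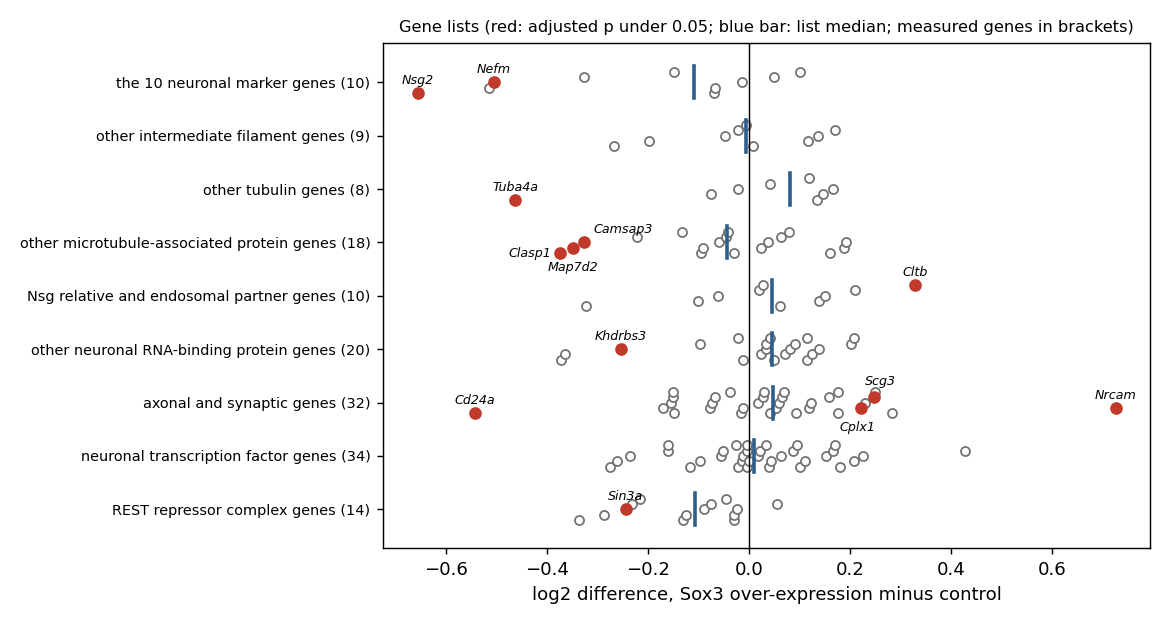
Log2 difference (x axis), Sox3 over-expression minus control, of each measured gene of the 10 markers and of 8 further lists; red points have a limma adjusted p under 0.05, blue bars are list medians and brackets give the number of genes measured. Points are spread vertically only for legibility. Nsg2 and Nefm lie at -0.65 and -0.51, and Nrcam, an axonal adhesion gene, at 0.73.

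The genes whose pattern over the 6 arrays was most like that of each called marker were found by the root-mean-square difference of mean-centred log2 values. For Nsg2 they were Ms4a4d, Scd1, Pdlim4, Mcf2 and Ccnd1, at 0.06 to 0.07. For Nefm they were Nnat, Malat1, Cyp1b1, Lrfn4 and Pfkp, at 0.03 to 0.09. No other marker gene was among either 5.

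Markers of cell types were read on the same arrays. Their counts of called genes again stand beside 2.67% of all genes lower and 1.27% higher (limma). Of 10 neuron markers, 4 are among the genes described above, Tubb3, Dcx, Map2 and Elavl3, and 6 are not. None of the 10 was called (limma; 2 at p under 0.05 before adjustment, Tubb3 and Stmn2, beside 23.8% of all genes). Stmn2, a stathmin gene of neurons, differed by -0.22 ± 0.05 (SE, limma adjusted p = 0.0572). The summed log2 signal of the 10 neuron markers, Tubb3 included, was 62.27 to 62.45 in Sox3 cells and 62.84 to 63.33 in control cells. The median of the 10 differences was only -0.01, with 7 of 10 below 0, as for 7649 of all 15302 genes. The largest were those of Tubb3 (-0.51) and Stmn2 (-0.22), and the sum was not repeated without these 2 genes. Snap25 and Syt1, genes of synaptic release chosen after their values were seen, lay between 4.81 and 5.46 on all arrays. Of 9 progenitor markers 1 fell, Sox2, by 0.37 on the log2 scale (limma adjusted p = 0.0241). With 1 array left out, Sox2 passed in 2 of 6 fits, those lacking control replicate 2 or 3 (highest limma adjusted p 0.0751), and it did not pass with cyclic loess (0.0529). In the same list 5 of 9 genes had limma p under 0.05 before adjustment, beside 23.8% of all genes, and the median difference was 0.04. The summed log2 signal of this list was 73.0 to 74.6 in Sox3 cells and 73.4 to 73.6 in control cells. Pax6, Prom1, Fabp7, Nes and Sox1 are named here after their values were seen. Pax6 differed by -0.19 ± 0.05 and Prom1 by -0.26 ± 0.07 (SE, limma adjusted p = 0.0683 and 0.0782). All Sox3 arrays lay below all control arrays for 3 of the 9 genes, Sox2, Pax6 and Prom1, beside 18.3% of all genes. They lay above for 2, Fabp7 and Nes, beside 13.1% of all genes. Fabp7, a gene of radial glia, lay at 6.73, 7.27 and 6.33 in Sox3 cells and between 5.99 and 6.04 in control cells, a difference of 0.77 ± 0.20 (SE, limma adjusted p = 0.0741). Nes, which encodes nestin, differed by 0.14 ± 0.06 (SE, limma adjusted p = 0.215), and Sox1 lay between 6.74 and 7.09 on all arrays.

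Of 6 endoderm markers 3 fell, Foxa2, Afp and Ttr, by 0.57, 0.56 and 0.29 on the log2 scale (limma adjusted p = 0.0325, 0.0222 and 0.0275). Foxa2 and Ttr passed in 1 of the 6 fits that leave out 1 array each, that lacking control replicate 1, and Afp in 2, those lacking control replicate 1 or 3. The highest limma adjusted p-values were 0.116, 0.106 and 0.0879 for Foxa2, Ttr and Afp. The other 3, named after their values were seen, were not called, with differences of 0.35 for Gata6, 0.26 for Gata4 and 0.08 for Sox17 (limma adjusted p = 0.148, 0.151 and 0.728). The summed log2 signal of the 6 endoderm markers was 42.3 to 43.6 in Sox3 cells and 42.5 to 44.1 in control cells. Of 6 mesoderm markers 1 rose, the smooth muscle actin gene Acta2 (sums of 43.1 to 43.6 against 41.1 to 41.8, and without Acta2 33.7 to 34.0 against 33.1 to 33.6). Of 5 measured neural crest markers 1 rose, Foxd3 (34.3 to 34.5 against 34.0 to 34.6, and without Foxd3 27.9 to 28.0 against 27.9 to 28.4). Foxd3 passed in 1 of the 6 fits, that lacking Sox3 replicate 3 (highest limma adjusted p 0.157), and its call was lost after quantile normalisation (0.0571) and cyclic loess (0.0575), whereas Acta2 and Olig2 were called in all 6 fits. Of 5 measured glial markers 1 rose, Olig2 (sums of 32.2 to 32.4 against 31.6 to 31.8). Without Olig2 the order of the glial sums turned, to 25.9 to 26.1 in Sox3 cells against 26.2 to 26.3 in control cells. Mbp, a myelin gene named after its value was seen, differed by -0.20 ± 0.07 (SE, limma adjusted p = 0.142). None of 5 pluripotency markers was called (limma; 1 at p under 0.05 before adjustment, Esrrb, beside 23.8% of all genes), with sums of 52.7 to 53.4 against 52.5 to 53.4. Several of these were bright in both groups, as seen after their values were read. Lower mean signals were held by 99.8% of all genes for Dppa5a, 99.1% for Zfp42 and 91.6% for Pou5f1. For Esrrb and Klf4 the shares were 66.2% and 61.4%, and for the progenitor markers Sox2 and Sox1 97.3% and 46.8%. Probes differ in affinity, so such ranks do not compare RNA amounts between genes. Array signals have no zero, so no defining marker can be said to be absent. The part of these markers in the differences of Nsg2, Nefm and Tubb3 was not tested.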

How the data were processed

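Per the labels' protocols, biotin-labelled RNA of sorted cells was hybridised to Affymetrix arrays. The authors deposited log2 expression values; the submitters' processing notes name RMA and Affymetrix Power Tools. Their versions, the array type and how probe sets were defined are not stated in the sources used here. RMA corrects background, quantile-normalises arrays and summarises probe sets on the log2 scale. The deposited arrays still differed in spread. Their interquartile ranges were 2.89, 2.98 and 2.97 in Sox3 replicates 1, 2 and 3 and 3.00, 3.02 and 3.17 in control replicates 1, 2 and 3. Values ran from 4.41 to 14.6. With arrays, the 3 samples per group limit the precision.

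Of 21940 probe sets, 64 array controls were left out. RefSeq accessions, without versions, gave 1 symbol for 17123 of the other 21876 and none for 4753 (GRCm38.p6). None of the 10 marker genes shared its values with another gene.

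The comparison used limma (version 3.58.1; lmFit, eBayes; R version 4.3.3), two-sided, without a replicate block or filter, a procedure tested on simulated data. Other settings were 3 renormalisations, 2 filters, another prior variance, array weights, a block, other probe set choices and leaving out each array. Pairs of markers were compared by exact permutation over arrays. The text names the 10 markers, Sox3, Neurog2, up to 4 called genes per list by smallest p (or the 2 with the smallest p where none was called), and the 5 most similar genes; exceptions are marked. The markers and lists were chosen with earlier results of these data known. A protein comparison that was planned and 1 gene of the axonal and synaptic list are not reported here.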

Additional observations from a re-analysis of the deposited data

How the results depend on the processing

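With 1 array left out, 74 to 189 probe sets rose and 94 to 286 fell (255 and 536 with all 6 arrays), 1 to 3 marker genes fell, and 3 to 6 genes of the further lists rose and 0 to 6 fell (7 and 11 with all arrays). Array weights gave 817 and 1280 probe sets and 13 and 21 list genes; the filter at the 25th percentile gave 11 list genes higher. The former fits hold fewer arrays; for array weights and the filter the cause was not tested. No marker gene rose in any setting. The difference of Elavl3 reversed with array weights (-0.017), and ran from -0.054 to 0.13 with 1 array left out; that between Nefm and Nefl ran from -0.35 to 0.018, between Nefm and Ina from -0.47 to -0.22, between Nefl and Ina from -0.23 to -0.12, between Nsg2 and Nsg1 from -0.64 to -0.51, and between Map2 and Mapt from -0.22 to -0.08.

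Same-numbered arrays were not treated as pairs, since their deviations from the group means correlated at 0.29, -0.21 and 0.12. The replicate block gave 248 probe sets higher and 510 lower, with Nsg2 at adjusted p = 0.00916, Nefm at 0.0134 and Tubb3 at 0.0617 in limma, and 4 genes of the further lists higher and 8 lower. It changed no call among the 10 markers. Both filters removed the probe sets of Dcx and Map2, and the filter at the median also those of Elavl3, Nefm and Mapt, so those genes have no value there.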
